A study of Mus musculus with 16 samples.

Results

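Osteoclast genes were examined in RNA-seq libraries of endothelial cells (ECs) sorted from mouse bone. The 8 genes, chosen by symbol, were Nfatc1, Oscar, Calcr, Dcstamp, Ocstamp, Atp6v0d2, Ctsk and Acp5, of 38926 gene names in the tables for metaphyseal and marrow ECs and for Lats2 mutants, and of 21603 Ensembl identifiers in the Yap1/Taz lists. All 8 were listed in every library.

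The series held 16 libraries from C57BL/6 mice in 3 comparisons. In the first, 3 libraries of wildtype metaphyseal ECs (mpECs) were set against 3 of wildtype ECs from the diaphyseal marrow (bmECs), sorted by the methods from Cdh5-mTnG reporter mice, in which the Cdh5 promoter labels ECs with fluorescent proteins. In the second, 3 control libraries, Yap1flx/flx and Wwtr1flx/flx without Cdh5CreERT2, were set against 3 libraries labelled Yap1/Taz iΔEC, with the same floxed alleles and Cdh5CreERT2, all at postnatal day 21. In the third, 2 Lats2flx/flx control libraries without Cdh5CreERT2 were set against 2 Lats2 iΔEC libraries with it. The control and mutant mice shared the floxed alleles and were littermates given tamoxifen, which activates the Cre recombinase in Cdh5-expressing cells. The methods call the replicates biological, and the labels do not say which animals went into each library. The p-values measure the spread between these libraries.

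Osteoclasts are large multinucleated cells that form by fusion of precursors of the monocyte and macrophage lineage and resorb bone. The cytokines M-CSF (Csf1) and RANKL (Tnfsf11) drive their formation through the receptors Csf1r and RANK (Tnfrsf11a), and the transcription factor Nfatc1 then switches on genes for fusion, acid secretion and matrix digestion. They gather at the growth plate border of the metaphysis, where calcified cartilage is removed beside growing capillaries. The 8 genes cover these steps: Nfatc1 is the transcription factor, Oscar and Calcr are receptors, Dcstamp, Ocstamp and Atp6v0d2 serve cell fusion, and Ctsk and Acp5 encode resorption enzymes. Nfatc1 is also expressed in ECs, and Acp5 also in macrophages.

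The windows around the annotated starts of Ctsk and Acp5 are shown because these resorption enzymes changed between mpECs and bmECs. Each runs 5′ to 3′ on the gene's strand and holds 300 bases of RefSeq sequence in GRCm38.p6. Ctsk lies on the plus strand at chr3:95498960-95499259, and the windows of Acp5, which has several annotated starts, lie on the minus strand at chr9:22135697-22135996, chr9:22131816-22132115 and chr9:22130549-22130848. Capitals mark NFAT letters (GGAAA), PU.1 letters (GAGGAA) and M-box letters (CATGTG, a form of the E-box CANNTG) on either strand.
Ctsk: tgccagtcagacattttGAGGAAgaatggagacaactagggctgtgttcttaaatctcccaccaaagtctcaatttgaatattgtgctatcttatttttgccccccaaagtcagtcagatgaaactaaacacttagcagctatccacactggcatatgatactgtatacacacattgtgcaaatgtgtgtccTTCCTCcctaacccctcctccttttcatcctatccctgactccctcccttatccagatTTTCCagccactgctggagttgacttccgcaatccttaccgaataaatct
Acp5, first start: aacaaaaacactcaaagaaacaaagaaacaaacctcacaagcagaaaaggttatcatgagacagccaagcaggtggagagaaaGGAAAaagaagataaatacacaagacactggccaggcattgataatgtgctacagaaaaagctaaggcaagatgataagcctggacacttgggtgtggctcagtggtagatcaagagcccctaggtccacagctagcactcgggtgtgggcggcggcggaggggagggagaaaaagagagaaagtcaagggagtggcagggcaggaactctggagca
Acp5, second start: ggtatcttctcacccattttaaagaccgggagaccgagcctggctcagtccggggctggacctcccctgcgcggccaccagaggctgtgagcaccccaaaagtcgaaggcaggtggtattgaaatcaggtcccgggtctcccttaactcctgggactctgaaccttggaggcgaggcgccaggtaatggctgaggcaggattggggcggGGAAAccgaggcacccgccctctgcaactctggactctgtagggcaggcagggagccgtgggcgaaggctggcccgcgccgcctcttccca
Acp5, last start: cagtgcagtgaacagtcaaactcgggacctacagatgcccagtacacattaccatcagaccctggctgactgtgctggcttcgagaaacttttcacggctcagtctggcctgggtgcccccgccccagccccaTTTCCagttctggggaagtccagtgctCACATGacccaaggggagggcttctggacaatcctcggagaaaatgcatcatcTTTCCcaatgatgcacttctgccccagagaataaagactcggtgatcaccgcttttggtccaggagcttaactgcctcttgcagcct
NFAT letters occurred once in the Ctsk window and in each of the first and second Acp5 windows, and 2 times in the last one. They were in 61.3% of the 32851 RefSeq promoter windows of this length. PU.1 letters occurred 2 times in the Ctsk window and in none of the Acp5 windows, against 28.3% of all windows. M-box letters were found in the last Acp5 window alone among these 4, against 14.2% of all windows. AP-1 letters (TGANTCA), TEAD letters (GGAATG) and hypoxia response letters (ACGTG) were in none of the 4, against 7.81%, 14.7% and 19.6% of all windows. A match describes letters, not a bound site. Windows were found for 4 of the 8 genes, and those of Oscar and Calcr are not shown.

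The libraries held 11113986 to 14743046 recovered reads on genes in mpECs and bmECs, 4885909 to 7166572 in the Yap1/Taz lists and 4730069 to 7067708 in the Lats2 table. The values are FPKM, which divide a gene's fragments by its length and by the size of its library. Of the low values, 62.4% to 70.0% per library lay within 0.02 of a whole read, which allowed reads to be recovered. The 8 endothelial markers summed to 442.4 to 2015.3 FPKM. All libraries also held transcripts listed as markers of other cell types. The 12 macrophage and monocyte markers summed to 86.5 to 2314.6 FPKM, and the 4 erythroid markers to 145.0 to 37647.9 FPKM. Which cells held each marker was not tested. In the libraries labelled Yap1/Taz iΔEC, Wwtr1 went against the label and Yap1 was not called (log2 difference -0.04, limma adjusted p = 0.934). By quantitative PCR, the study reported reduced transcripts of both genes in freshly isolated mutant bone ECs. Yap1 was at 0.995 to 1.62 FPKM in the controls and 0.989 to 1.43 FPKM in the libraries labelled Yap1/Taz iΔEC, and Wwtr1, which encodes Taz, was higher in the latter, at 15.3 to 19.6 against 9.88 to 10.3 FPKM (log2 difference 0.78, SE 0.12, adjusted p = 0.0272). That call was lost without control replicate 2 or 3 or without replicate 2 or 3 of the labelled group (adjusted p = 0.0752, 0.0715, 0.180 and 0.144). Lats2 was at 23.4 and 24.0 FPKM in controls and at 19.2 FPKM in both Lats2 iΔEC libraries (log2 difference -0.29, SE 0.11, adjusted p = 0.125). Whole-gene values include exons that Cre does not remove, and 42.4% of the exon bases of Lats2 are shared with an overlapping gene. In bulk RNA, fewer cells of a type and less RNA per cell cannot be told apart.

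The resorption genes Ctsk and Acp5 were higher in metaphyseal than in marrow ECs. The comparison asks how ECs of the 2 bone regions differ. Ctsk was 12.3 ± 3.76 FPKM (SD, n = 3) in mpECs and 1.09 ± 0.0983 FPKM (SD, n = 3) in bmECs, Acp5 had a smaller difference, Nfatc1 was not called, and the 3 fusion genes were at or near 0 in bmECs. Of the 8 genes, 3 reached the mean of 1 FPKM that the test required, and 2 of these 3 were lower in bmECs at an adjusted p under 0.05. Among all 11422 genes tested, 10.5% were lower in bmECs and 23.5% differed in either direction. In 2 of the 3 tested members every bmEC library was below every mpEC library, against 19.2% of the genes tested. The same held for 3 of the 5 members under the filter, to which that share does not apply. For Ocstamp, 1 of these, it rested on 1 read in each of the nearest libraries.

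**Figure D1:**
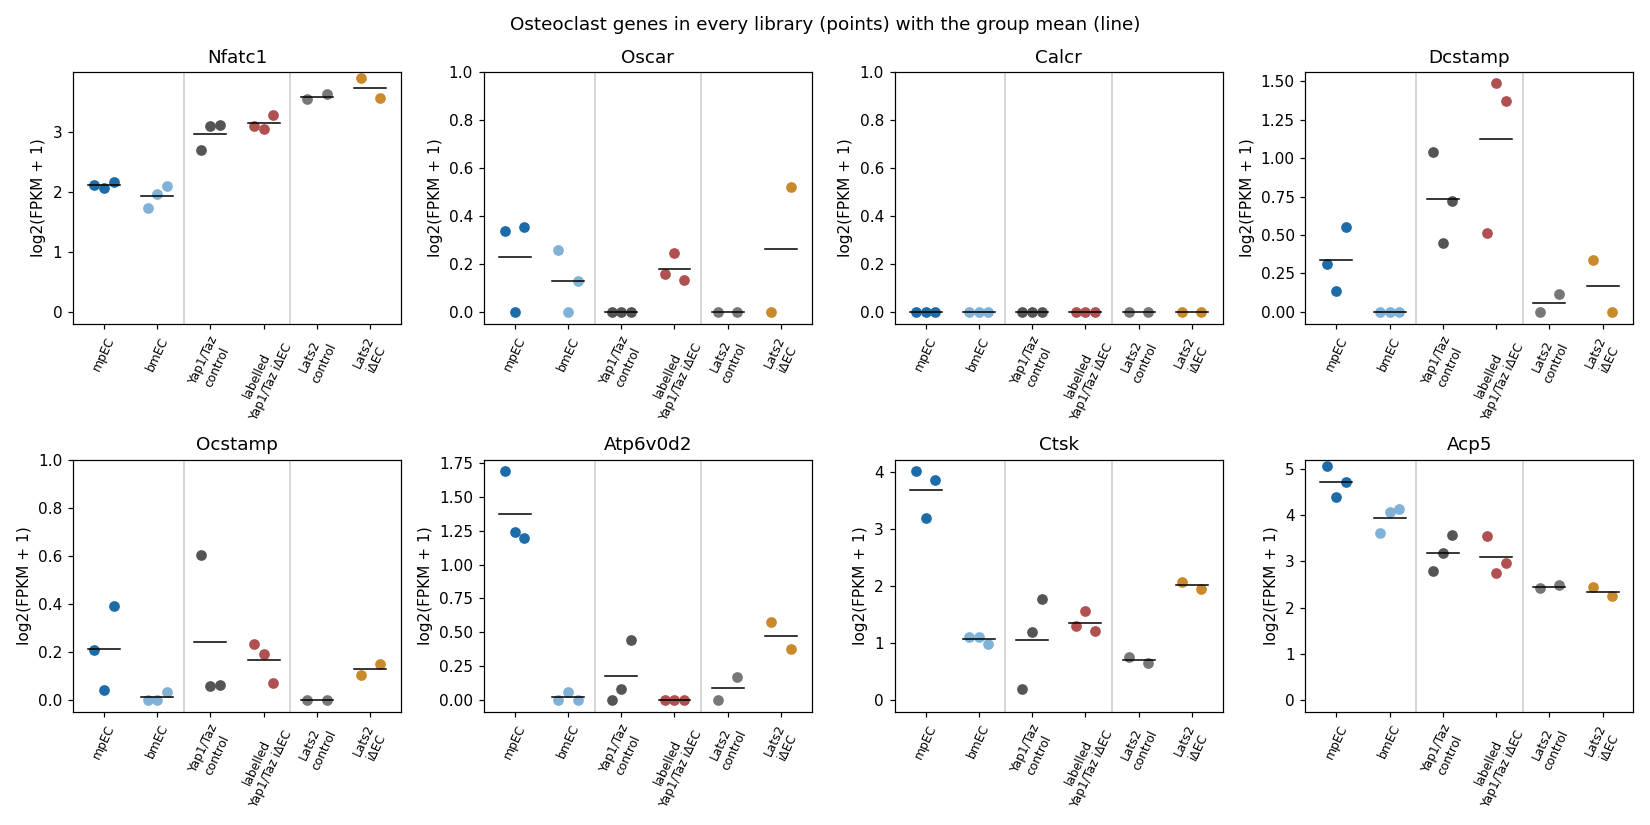
Level of each osteoclast gene as log2(FPKM + 1), on the vertical axis, in every library of the 6 groups (points), with group means (lines). Ctsk and Atp6v0d2 stand above all bmEC libraries in the 3 mpEC libraries, Ctsk is higher in both Lats2 iΔEC libraries than in both controls, and Calcr is at 0 in all 16 libraries. Grey lines part the 3 comparisons, whose values were scaled separately.

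The transcription factor Nfatc1 had 3.33, 3.20 and 3.51 FPKM in mpEC replicates 1 to 3 and 2.31, 2.89 and 3.27 FPKM in bmEC replicates 1 to 3. The highest bmEC value lay within the mpEC range, so the groups overlapped. The log2 difference, bmEC minus mpEC on the log2(FPKM + 1) scale, was -0.19 (95% interval -0.49 to 0.11, limma adjusted p = 0.325).

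The receptors were scarce. Oscar, an immunoglobulin-like receptor that costimulates osteoclast precursors (chromosome 7, 3609813 to 3616157), had 0.263, 0 and 0.279 FPKM in mpECs and 0.197, 0 and 0.0920 FPKM in bmECs. These values stand for 11 reads in all mpEC libraries and 5 in all bmEC libraries, and the groups overlapped. Calcr, the calcitonin receptor of mature osteoclasts (chromosome 6, 3685680 to 3764714), was at 0 in all 16 libraries, where 3 reads, the limit that a count of 0 allows, would be 0.0621 to 0.203 FPKM. Such limits cover counting error only.

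Of the fusion genes, Atp6v0d2, a subunit of the proton pump that is also needed for fusion (chromosome 4, 19876841 to 19922605), had 2.23, 1.37 and 1.29 FPKM in mpECs and 0, 0.0389 and 0 FPKM in bmECs. The groups did not overlap. It had 75, 37 and 34 reads in mpECs and a single read in 1 bmEC library, a ratio of 153 per read of depth (95% counting interval 27.0 to 6072). It stayed below the 1 FPKM mean that the main test required. It also passed the minimum of 10 reads only through the mpEC libraries, where it was high, so that fit describes the size of the difference and adds no support. Limma without the FPKM filter gave a log2 difference of -1.36 (adjusted p = 0.00350), and limma-voom on genes with 10 or more recovered reads, an alternative added after the data were seen, gave -5.92 (SE 0.90, adjusted p = 0.00135).

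Dcstamp, a membrane protein required for osteoclast fusion (chromosome 15, 39745930 to 39760938), had 0.244, 0.101 and 0.465 FPKM in mpECs and 0 in all 3 bmEC libraries. This was 17 reads against 0, at least 5.93-fold higher in mpECs per read of depth with 3 reads over the bmEC group as the floor. Limma-voom, whose read minimum Dcstamp also passed only through mpECs, gave an adjusted p of 0.0232 and limma without the filter 0.0987. Ocstamp, its relative (chromosome 2, 165393760 to 165400405), had 0.155, 0.0274 and 0.310 FPKM in mpECs and 0, 0 and 0.0232 FPKM in bmECs. The lowest mpEC library and the highest bmEC library each held 1 read of Ocstamp, and the adjusted p was 0.130 with limma-voom and 0.229 with limma without the filter.

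Ctsk encodes cathepsin K, the collagen-cleaving protease of osteoclasts (chromosome 3, 95499256 to 95509362). It had 15.3, 8.12 and 13.5 FPKM in mpEC replicates 1 to 3 and 1.15, 1.14 and 0.975 FPKM in bmEC replicates 1 to 3. Every mpEC library was above every bmEC library. The log2 difference was -2.63 (SE 0.21, 95% interval -3.12 to -2.15, limma adjusted p = 0.000127), and in recovered reads, which carry no pseudocount, limma-voom gave -3.47 (adjusted p = 0.000301).

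Acp5 encodes the tartrate-resistant acid phosphatase by which osteoclasts are stained (chromosome 9, 22126727 to 22135711). It had 32.6, 20.0 and 25.4 FPKM in mpEC replicates 1 to 3 and 11.3, 15.9 and 16.6 FPKM in bmEC replicates 1 to 3. The groups did not overlap, although the lowest mpEC and the highest bmEC library were close. The log2 difference was -0.78 (SE 0.20, 95% interval -1.24 to -0.33, limma adjusted p = 0.0240). This call rested on single libraries: the adjusted p was 0.0565 without mpEC replicate 1, 0.0695 without mpEC replicate 3 and 0.0693 without bmEC replicate 1.

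The members did not move in 1 proportion. Acp5 was 1.88 to 2.46 times the FPKM of Ctsk in the mpEC libraries and 9.85 to 17.0 times in the bmEC libraries. By mean FPKM, Ctsk stood below Acp5 and above Nfatc1 in mpECs, with no overlap on either side, and below both in bmECs. In bmECs, where Acp5 was at 14.6 ± 2.88 FPKM (SD, n = 3), the receptors and fusion genes were each below 0.2 FPKM in every library.

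**Figure D2:**
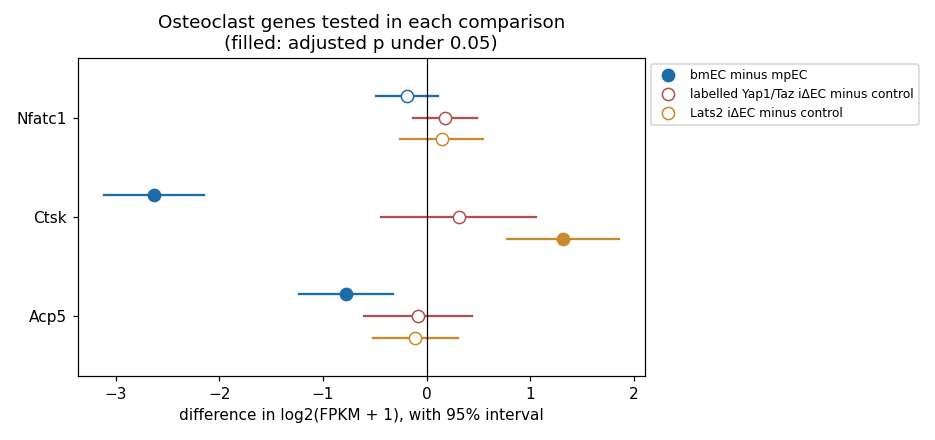
Difference in log2(FPKM + 1), on the horizontal axis, of the 3 osteoclast genes that could be tested, with 95% intervals, in the 3 comparisons (colors). Filled points passed an adjusted p of 0.05: Ctsk at -2.63 and Acp5 at -0.78 in bmECs against mpECs, and Ctsk at 1.31 in Lats2 iΔEC against control.

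Several markers of other bone cells moved with these genes between mpECs and bmECs. Of 8 osteoblast markers, 5 were tested and 3 were lower in bmECs, Bglap (osteocalcin, log2 difference -5.53, adjusted p = 0.000630), Col1a1 (-4.99, adjusted p = 0.000127) and Dmp1 (-3.47, adjusted p = 0.00434). The summed level of the 8 was 121.8 to 546.3 FPKM in mpECs and 41.2 to 52.5 FPKM in bmECs. Most of the bmEC sum was Ibsp, which was not called and overlapped, at 32.8 to 105.8 FPKM in mpECs and 38.4 to 46.8 FPKM in bmECs. Of 5 chondrocyte markers, both tested were lower, and Col2a1, a cartilage collagen, was at 6.85 to 8.68 FPKM in mpECs and at 0 in all bmEC libraries. Both chondrocyte markers, Col1a1 and Dmp1 passed the filter only through the mpEC libraries, so that these counts are a description. Within the mpEC libraries, Bglap was at 321.6, 185.2 and 49.2 FPKM in replicates 1 to 3, while Ctsk was lowest in replicate 2. Of the mpEC libraries, replicate 2 also had the lowest summed macrophage and monocyte markers, most of which was Lyz2, at 1264.9 FPKM against 2203.4 and 1538.9 FPKM, and the lowest summed neutrophil, erythroid and megakaryocyte markers. Csf1r and Adgre1 were lowest in replicate 3, and Mrc1 was highest in replicate 2. The part of these cells in the Ctsk and Acp5 differences was not tested.

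The macrophage markers themselves overlapped or moved in both directions. The M-CSF receptor Csf1r was at 2.36 to 3.23 FPKM in mpECs and 0.952 to 2.47 FPKM in bmECs (log2 difference -0.46, adjusted p = 0.186), Adgre1 (F4/80) had a log2 difference of 0.11 (adjusted p = 0.819), and Cd68, a lysosomal protein of macrophages, -0.23 (adjusted p = 0.444). Of the 12 macrophage and monocyte markers, 11 were tested, 1 was higher in bmECs (the mannose receptor Mrc1, 1.74, adjusted p = 7.57e-05) and 2 were lower, among them Lyz2 (lysozyme, -0.82, adjusted p = 0.0312). Mrc1 was at 300.1 to 351.5 FPKM in bmECs, where Csf1r was at most 2.47 FPKM, and which cells held Mrc1 was not tested. Ctsk was 2.81 to 5.74 times the FPKM of Csf1r in mpECs and 0.395 to 1.20 times in bmECs. The same ratio for Acp5 overlapped, at 6.90 to 10.8 in mpECs and 5.22 to 16.7 in bmECs.

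**Figure D3:**
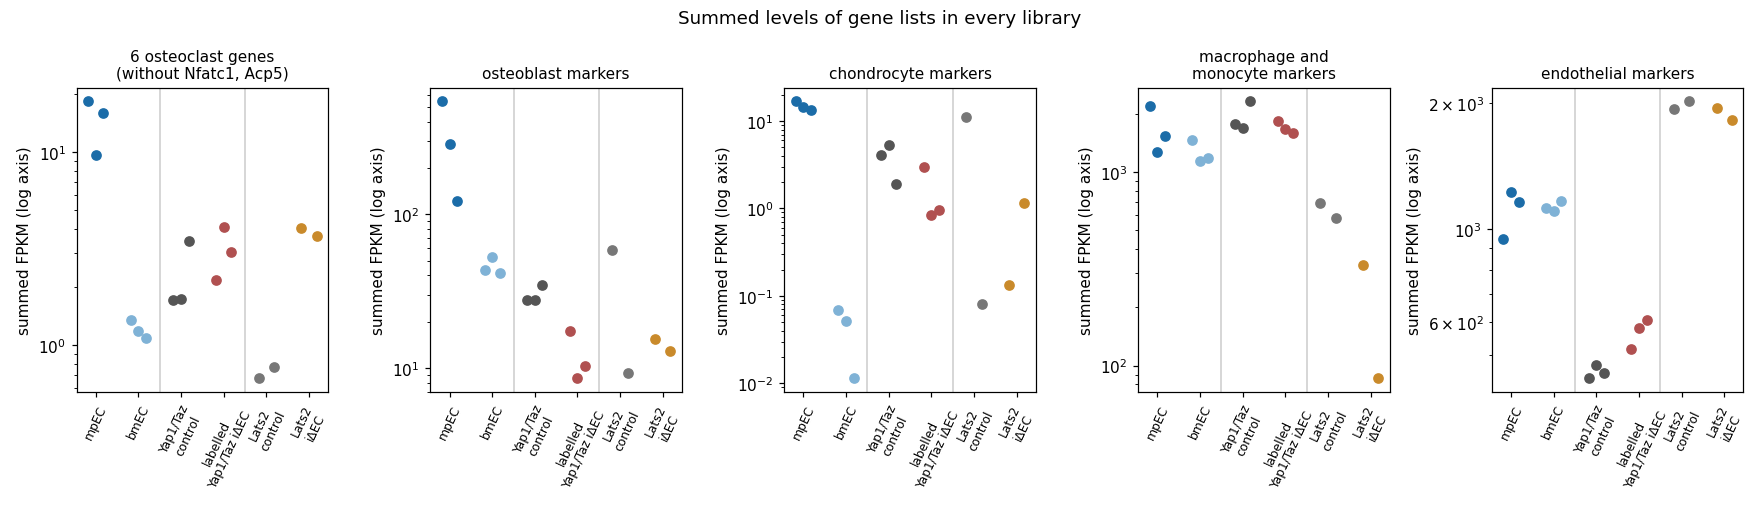
Summed FPKM, on log axes, of the 6 osteoclast genes other than Nfatc1 and Acp5 and of 4 marker lists in every library (points) of the 6 groups. The sums of the 6 osteoclast genes, of osteoblast and of chondrocyte markers are higher in all 3 mpEC than in all 3 bmEC libraries. Those of macrophage and endothelial markers overlap between these groups. Ctsk makes up most of the osteoclast sum in mpECs and bmECs, whereas Calcr adds nothing to it and Oscar overlaps.

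The other genes of the osteoclast pathway did not follow the members as a body. Of 56 pathway genes listed by role, 41 were tested in bmECs against mpECs, 8 were higher and 5 lower (31.7% called, against 23.5% of all genes), and 8 were called without mpEC replicate 3. Their median log2 difference was -0.06, against -0.00068 over all genes tested. In the acid secretion group 12 of 13 genes were tested, 3 were higher in bmECs and none was lower: Snx10 (an endosomal sorting protein, 1.00, adjusted p = 0.000156), Ostm1 (partner of the chloride channel Clcn7, 0.52, adjusted p = 0.0198) and the pump accessory subunit Atp6ap1 (0.36, adjusted p = 0.0114). Among 5 matrix degradation genes, the lysosomal proteases Ctsd (0.80, adjusted p = 0.000832) and Ctsb (0.75, adjusted p = 0.00115) were higher in bmECs and the gelatinase Mmp9 was lower (-0.96, adjusted p = 0.0290). In bmECs, where the fusion genes were at or near 0, Ctsb was at 1054 to 1258 FPKM and Atp6ap1 at 134.4 to 142.3 FPKM. Which cells held the transcripts of these pathway genes was not tested.

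Of the genes that restrain osteoclast formation, the transcription factor Irf8 (1.35, adjusted p = 6.28e-05) was higher in bmECs and the inhibitory receptor Lilrb4a was lower (-0.88, adjusted p = 0.0325). Irf8 was at 12.2 to 14.6 FPKM in mpECs and at 35.2 to 35.6 FPKM in bmECs. The signalling adaptor Fcer1g, which pairs with Oscar, was the only 1 of 5 tested costimulatory genes that was called, and was lower (-0.73, adjusted p = 0.00963). Among 6 tested adhesion and fusion genes, Cd47, a surface protein with a role in fusion, was higher (0.52, adjusted p = 0.00602).

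Of the genes by which osteoclasts signal to osteoblasts, Cthrc1, a secreted glycoprotein, had 36.0, 28.4 and 32.7 FPKM in mpECs and 2.55, 2.21 and 1.44 FPKM in bmECs. This was the largest difference among the tested pathway genes in this comparison (-3.46, SE 0.16, adjusted p = 1.71e-05). Pdgfb, a growth factor that ECs also make, was lower too (-0.47, adjusted p = 0.0409). The RANKL gene Tnfsf11 (at most 0.253 FPKM) and the RANK gene Tnfrsf11a (at most 0.779 FPKM) were below the filter in this table, both named after their values were seen, and the transcription factors of the list gave 0 calls among 4 tested with limma, 2 of them at an unadjusted p under 0.05.

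**Figure D4:**
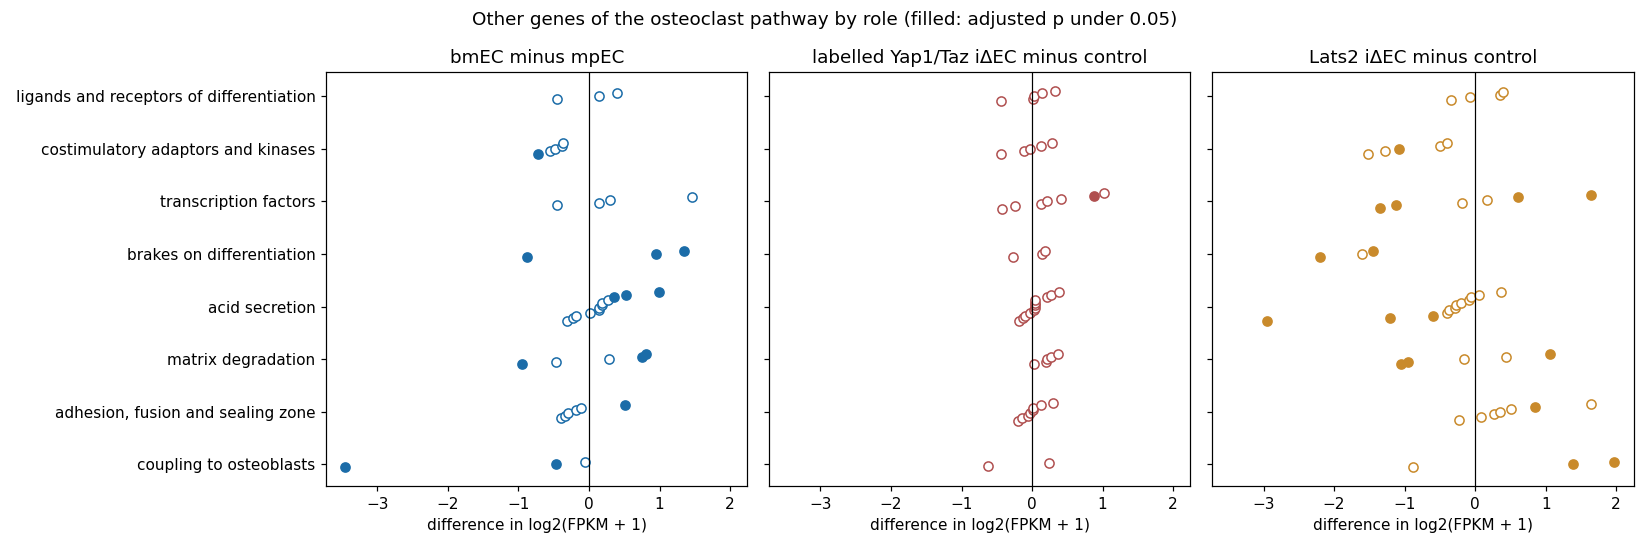
Difference in log2(FPKM + 1), on the horizontal axis, of each tested pathway gene (points), arranged by role, in the 3 comparisons. Filled points passed an adjusted p of 0.05: 13 of 41 genes in bmECs against mpECs, 1 of 47 in the libraries labelled Yap1/Taz iΔEC against control and 16 of 45 in Lats2 iΔEC against control.

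No osteoclast gene differed between the libraries labelled Yap1/Taz iΔEC and their controls at an adjusted p under 0.05. The comparison was designed to show what endothelial Yap1 and Taz control. By immunostaining for a vacuolar ATPase subunit, the study reported more osteoclasts in Yap1/Taz mutant femurs. RNA of sorted ECs does not count osteoclasts in the tissue. With 3 of 8 genes tested, limma called 0, none had an unadjusted p under 0.05, and limma-voom called 0. Over all 11320 genes tested, 1.31% were called. Nfatc1 had 5.50, 7.52 and 7.61 FPKM in controls and 7.52, 7.29 and 8.71 FPKM in the libraries labelled Yap1/Taz iΔEC, with overlapping groups and a log2 difference of 0.18 (95% interval -0.14 to 0.49, adjusted p = 0.554).

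Ctsk was low and uneven here. It had 0.142, 1.27 and 2.40 FPKM in control replicates 1 to 3, the first of which is 1 read, and 1.45, 1.96 and 1.31 FPKM in the libraries labelled Yap1/Taz iΔEC. The controls enclosed the other group, and the log2 difference of 0.31 (95% interval -0.44 to 1.06, adjusted p = 0.683) turned to -0.12 without control replicate 1. Acp5 had 5.88, 8.02 and 10.8 FPKM in controls and 10.8, 5.73 and 6.77 FPKM in the libraries labelled Yap1/Taz iΔEC, and the difference was -0.09 (95% interval -0.61 to 0.44, adjusted p = 0.892). Its sign turned without control replicate 3 (0.11) and without replicate 2 of the labelled group (0.08).

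The untested members other than Dcstamp had few reads in any library. Dcstamp had 1.06, 0.364 and 0.648 FPKM in controls and 0.430, 1.80 and 1.59 FPKM in the libraries labelled Yap1/Taz iΔEC, with overlapping groups. In reads this was 23 against 43, a ratio of 1.98 per read of depth (counting interval 1.17 to 3.45). That interval covers counting error only. Limma-voom, which uses the spread between libraries, gave an adjusted p of 0.480. Atp6v0d2 had 7 reads in the controls, 6 of them in replicate 3, and 0 in the other group. Oscar had 0 reads in the controls and 1, 2 and 1 reads in the libraries labelled Yap1/Taz iΔEC, so the groups did not overlap, but on 4 reads in all (adjusted p = 0.212 without the filter). Among the genes tested, 12.3% had all libraries of the labelled group above all controls. Ocstamp had 11 reads against 7.

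Of the pathway genes 47 were tested and 1 was called, Jdp2, an AP-1 family factor required for osteoclast formation. It had 25.1, 24.4 and 20.0 FPKM in controls and 31.9, 50.6 and 49.2 FPKM in the libraries labelled Yap1/Taz iΔEC, with no overlap (log2 difference 0.87, SE 0.17, adjusted p = 0.0443). Pathway calls were 0 without any 1 of the controls or without replicate 2 or 3 of the labelled group, and 4 without its replicate 1. The pathway median was 0.04, against -0.0047 over all genes. Csf1r was at 43.0 to 60.0 FPKM in controls and 34.3 to 37.0 FPKM in the libraries labelled Yap1/Taz iΔEC (-0.44, adjusted p = 0.114), Adgre1 had a difference of -0.29 (adjusted p = 0.545) and Cd68 of 0.10 (adjusted p = 0.784). Ctsk was at most 0.0572 times the FPKM of Csf1r in these 6 libraries. Of 8 osteoblast markers 4 were tested and 2 were lower, among them Col1a1 (-1.95, adjusted p = 0.0388). The other passed the filter only through the controls, so that count is a description. Limma called none of the 12 macrophage and monocyte markers, 2 of which had an unadjusted p under 0.05.

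Ctsk was higher in Lats2 iΔEC than in control ECs, and the other osteoclast genes were not called. The comparison was designed to show what endothelial Lats2, a kinase that restrains Yap1 and Taz, controls. Ctsk had 0.678 and 0.567 FPKM in controls and 3.22 and 2.85 FPKM in Lats2 iΔEC libraries. Both mutant libraries were above both controls, as in 34.0% of genes tested, on 10 against 39 reads (ratio 4.41 per read of depth, 95% counting interval 2.16 to 9.91). The log2 difference was 1.31 (SE 0.21, 95% interval 0.77 to 1.85, limma adjusted p = 0.0176), and 2.18 with limma-voom on recovered reads, without a pseudocount (adjusted p = 0.0198). Ctsk passed the filter only through the mutant libraries, where it was high, so these fits describe the size of the difference and add no support. The call was 1 of 3 tested members, against 11.8% of 12453 genes higher and 21.8% called in either direction.

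With single libraries left out, the Ctsk call was kept only without mutant replicate 1. The log2 difference was 1.36 and 1.26 without control replicate 1 or 2, and 1.25 and 1.38 without mutant replicate 1 or 2. In these fits the lone library of a group is assumed to vary like the other group. Pathway calls here were 0 without either control and 9 without mutant replicate 2. Without either control, limma called 0 of all genes, although 2724 and 2879 had an unadjusted p under 0.05.

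Nfatc1 had 10.7 and 11.3 FPKM in controls and 13.8 and 10.8 FPKM in Lats2 iΔEC libraries (0.14, 95% interval -0.26 to 0.55, adjusted p = 0.543), with overlapping groups. Acp5 had 4.36 and 4.59 FPKM in controls and 4.44 and 3.74 FPKM in Lats2 iΔEC libraries (-0.11, 95% interval -0.52 to 0.30, adjusted p = 0.658). The ranges overlapped again. Acp5 was 6.44 and 8.09 times the FPKM of Ctsk in controls and 1.38 and 1.31 times in Lats2 iΔEC libraries. Atp6v0d2 had 0 and 2 reads in controls and 5 and 4 reads in mutants (limma-voom adjusted p = 0.153). Oscar, Dcstamp and Ocstamp had at most 4 reads in any of these libraries.

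Markers of several blood cells were lower in the Lats2 iΔEC libraries, while macrophage markers lay on both sides of their controls. Of the tested markers, 4 of 4 for B cells, 5 of 7 for neutrophils and 1 of 4 for megakaryocytes fell. Limma called 0 of 4 erythroid markers, 3 of which had an unadjusted p under 0.05, and all 4 were lower in both mutants than in both controls. Summed macrophage and monocyte markers were 694.2 and 577.7 FPKM in controls and 330.6 and 86.5 FPKM in mutants, with 2 of 10 tested genes lower. Most of that sum was Lyz2 and Mrc1. The complement genes C1qa, C1qb and C1qc and the surface protein gene Ms4a7 were higher in both mutants than in both controls. C1qa was at 1.74 and 0.647 FPKM in controls and 7.39 and 3.09 FPKM in mutants (log2 difference 1.46, limma adjusted p = 0.0660). The complement genes were not called, and Ms4a7 was below the filter. In all, 4 of the 12 macrophage markers were apart in that direction and 4 in the other. Of the 10 tested, 3 were apart in that direction, near the share of 34.0% among all genes tested. Csf1r did not separate the groups, at 5.33 and 6.42 against 3.08 and 9.49 FPKM (-0.07, adjusted p = 0.928), nor did Cd68 (0.35, adjusted p = 0.654), and Adgre1 was below the filter. Summed osteoblast markers were 58.9 and 9.21 FPKM in controls and 15.4 and 12.9 FPKM in mutants, and limma called none of the 4 tested, none of which had an unadjusted p under 0.05. The part of any of these cells in the Ctsk difference was not tested.

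Of the pathway genes 45 were tested, 6 were higher and 10 lower in Lats2 iΔEC libraries (35.6% called, against 21.8% of all genes), with a median of -0.20 against -0.0033 over all genes. All 3 called acid secretion genes were lower, with carbonic anhydrase Car2, also abundant in erythroid cells, at 184.7 and 170.9 FPKM in controls and 33.6 and 14.4 FPKM in mutants (-2.95, adjusted p = 0.0118), followed by Snx10 (-1.20, adjusted p = 0.0256) and the proton pump subunit Tcirg1 (-0.60, adjusted p = 0.0320). The restraining factor Irf8 was lower (-1.45, adjusted p = 0.00808). The lysosomal proteases Ctsd (-1.06, adjusted p = 0.0115) and Ctsb (-0.95, adjusted p = 0.0132) were lower as well, and the protease inhibitor Cst3 was higher (1.05, adjusted p = 0.0403). Here too, which cells held the pathway transcripts was not tested.

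Both called genes of signalling to osteoblasts were higher in mutants. Pdgfb had a log2 difference of 1.97 (adjusted p = 0.0109) and Cthrc1 of 1.39 (adjusted p = 0.0217), with Cthrc1 at 4.75 and 4.77 FPKM in controls and 18.3 and 10.9 FPKM in mutants. The tetraspanin Cd9, which takes part in fusion, was higher (0.85, adjusted p = 0.0349). Among transcription factors the AP-1 member Fosl2 was higher (0.61, adjusted p = 0.0478) and the NF-kappaB subunit Nfkb1 lower (-1.12, adjusted p = 0.0105). Prdm1, a repressor that lifts restraints on osteoclast formation, was higher (1.64, adjusted p = 0.0133), and Spi1 (PU.1) was lower (-1.35, adjusted p = 0.0357); both fell below the mean of 5 FPKM of the naming rule and were named after their values were seen.

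Across the 6 groups, whose tables were scaled separately, the order of the members differed. Acp5 ranked first by mean FPKM in mpECs, bmECs and the Yap1/Taz controls, and Nfatc1 ranked first in the libraries labelled Yap1/Taz iΔEC and in both Lats2 groups. Nfatc1 and Acp5 overlapped in both Yap1/Taz groups and were apart in the other 4. Nfatc1, Ctsk and Acp5 had reads in all 16 libraries, Ocstamp in 12, Dcstamp in 11, Atp6v0d2 in 9 and Oscar in 8. Over 16 libraries, the deviations of log2(FPKM + 1) from the group mean correlated with those of Ctsk at r = 0.66 for Atp6v0d2, 0.59 for Acp5, 0.49 for Nfatc1, 0.24 for Oscar, -0.07 for Dcstamp and -0.49 for Ocstamp. These points share each library's depth and scaling. With group means taken out, points within a group are not independent, and those of each Lats2 group mirror each other. Ocstamp and Oscar had 41 and 24 reads in all, and Atp6v0d2 was at 0 in 7 libraries.

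Of 4947 genes that averaged 5 FPKM or more in each table, among those whose deviations were most like the mean of Ctsk and Acp5 over the 16 libraries were Nubp2 (r = 0.89), Vti1a (0.86), Ctns (0.84), 9530068E07Rik (0.83), Pld3 (0.83), Eif4e2 (0.82), Bid (0.82), Utp15 (0.81) and Rrm2 (0.80). The listed pathway genes highest in that order were Fcer1g (0.77), Atp6ap1 (0.62) and Mmp9 (0.55). Among listed markers of other cells, the neutrophil genes Ngp (0.67) and Camp (0.51) stood highest, and the macrophage gene Cd68 reached 0.49. These correlations describe these libraries, and each uses 16 points that share library size and scaling and are not independent within a group.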

How the data were processed

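Total RNA of sorted bone ECs was sequenced as stranded, paired-end libraries on a MiSeq. The authors used TopHat for mapping to GRCm38 (mm10) and HTSeq 0.6.1 for counting over genes, and deposited FPKM values. The step from counts to FPKM and the strand setting of the counting are not given in the sources used here. For the 6 Yap1/Taz lists the unit was taken from their values, and 21375 of 21603 identifiers matched a symbol. Samples were grouped by their labels.

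From the deposited FPKM values log2(FPKM + 1) was tested with limma 3.58.1 (R 4.3.3) within each table, over genes that averaged 1 FPKM or more, with a group term and an intensity trend in the variance prior. Two-sided p-values were Benjamini-Hochberg adjusted across all tested genes of a comparison, and a call is an adjusted p under 0.05. Differences understate the change of low genes. Reads were recovered from FPKM, exon lengths (GENCODE M21) and each library's smallest step, with a length factor per member. Ratios of summed reads have exact 95% intervals for counting error only. The procedure was tested on simulated data, and no 2 replicates were alike within counting noise.

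The members and gene lists were chosen with earlier results of these data known. Besides the 8 members and the targeted genes, genes named were up to 4 called genes per list and comparison with the largest change among those averaging 5 FPKM or more, and Csf1r, Adgre1 and Cd68. Alternatives were another pseudocount (0.1), no filter and a filter at 5 FPKM, quantile and median-of-ratios scaling, no trend, limma-voom on recovered reads scaled by the trimmed mean of M values, a replicate block, leaving out each library and stricter calls (adjusted p under 0.01, absolute log2 difference over 0.5). Promoter windows are those of RefSeq for GRCm38.p6. The coordinates of Nfatc1 and some genes that met the naming rules are not reported here. Python 3.11.15, pandas 2.3.3, scipy and matplotlib were used.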

Additional observations from a re-analysis of the deposited data

How the results depend on the processing

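Of the members, Ctsk kept its sign and its call in bmECs against mpECs under all 16 alternatives (-3.47 to -2.46), and Nfatc1 kept its sign and was never called. The count of called members there was 1 to 2 when single libraries were left out, 1 under the stricter call and 4 with limma-voom on genes with 10 or more reads, which tests more members. The Acp5 call was also lost without the filter (adjusted p = 0.0662). Pathway calls there numbered 8 to 15 with single libraries left out and 8 under the stricter call. For the libraries labelled Yap1/Taz iΔEC, pathway calls were 0 without the filter, without the trend and under the stricter call, 3 with limma-voom on either gene set, and 0 to 4 with single libraries left out. Wwtr1 kept its difference of 0.78 without the filter (adjusted p = 0.0679), without the trend and under the stricter call, but not its call, and ranged from 0.72 to 0.89 with single libraries left out. The Yap1 difference was -0.14 to 0.077 with single libraries left out, above 0 without control replicate 2 (0.077) and without replicate 3 of the labelled group (0.0098). Ctsk there was -0.12 to 0.67 with single libraries left out, lowest without control replicate 1, and Acp5 -0.32 to 0.11, above 0 without control replicate 3 (0.11) and without replicate 2 of the labelled group (0.084). In Lats2 iΔEC, member calls were 0 with the filter at 5 FPKM, which leaves Ctsk untested, 0 under the stricter call and 0 to 1 with single libraries left out, pathway calls were 8 without the filter, 1 under the stricter call and 0 to 16 with single libraries left out, and Nfatc1 was -0.018 to 0.31 with single libraries left out, below 0 without mutant replicate 1. The causes were not tested. Whether libraries with the same replicate number were paired is not given by the labels. Correlations of same-numbered deviations were 0.09 to 0.31 in mpECs and bmECs, against -0.21 to 0.12 for differing numbers there. They were -0.18 to -0.12 in the Yap1/Taz lists and 0.07 in the Lats2 table. Over all genes, the labelled Yap1/Taz comparison gave 148 calls, against 1 without the filter or under the stricter call, 17 without the trend, 384 with limma-voom and 1 to 293 with single libraries left out, the Lats2 comparison 2711, against 1389 without the filter, 257 under the stricter call and 0 to 2701 with single libraries left out, and bmECs against mpECs 2682, against 1335 under the stricter call. With a replicate block, all calls in bmECs against mpECs went from 2682 to 3072 and pathway calls from 13 to 18. Over the Yap1/Taz lists, all calls went from 148 to 45 and pathway calls from 1 to 0. All calls in the Lats2 comparison went from 2711 to 2655, and the member calls stayed at 2, 0 and 1. Depth limits the receptors and fusion genes, at most 75 reads in any library, and 2 libraries a group limit the Lats2 comparison.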
